A study of Homo sapiens with 6 samples.

Results

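The placental and pluripotency microRNA (miRNA) clusters were represented by 53 of the 798 human miRNA probes on the panel. Members were taken from the probe names alone, as miR-498, miR-512, miR-515 to miR-527, miR-1283 and miR-1323 (the chromosome 19 cluster, 41 probes), miR-371 to miR-373 (its neighbour on the same chromosome, 4 probes) and miR-302 or miR-367 (8 probes). Counts came from A549 cells, a human lung adenocarcinoma line, in 3 siSCR libraries (100 pmol of a scramble control siRNA) and 3 siAPE1 libraries (100 pmol of an siRNA against APE1, the base excision repair endonuclease encoded by APEX1). All cells were collected 72 h after transfection, and 100 ng of total RNA entered the nCounter assay, which counts barcoded probes without amplification. The depletion was transient and in a single line, and no probe of the panel reads APEX1 mRNA. Whether the replicates were separate cultures is not given in the labels, so the p-values below measure only the spread between these libraries.

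The chromosome 19 cluster is a primate-specific array of miRNA genes that is imprinted, transcribed from the paternal allele and known for its activity in placental trophoblast, with little activity in most adult tissues. The neighbouring miR-371 to miR-373 genes and the miR-302 cluster, which also holds miR-367, are known for their activity in embryonic stem cells, where they support rapid cycling and the pluripotent state. Many miRNAs of all 3 groups carry the bases AAGUGC at or near their 5′ end. A miRNA finds its targets mainly through the seed, the bases close to that end, and the same core is found in the miR-17 family, which proliferating cells of many kinds express.

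The mature sequences below are those on which the results turn. They are RefSeq sequences of the GRCh38.p14 assembly, written 5′ to 3′ with the seed (bases 2 to 8) in capitals. Of the 64 miRNA names on the member probes, 58 were matched in that table. miR-498, miR-518f-3p, miR-522-3p, miR-527, miR-520e and miR-520b were not matched and are given by name. The first 4 sequences show how little separates miR-302d-3p from the other 3p miRNAs of its cluster.
miR-302d-3p: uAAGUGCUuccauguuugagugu
miR-302c-3p: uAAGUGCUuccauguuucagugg
miR-302a-3p: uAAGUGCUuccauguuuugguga
miR-302b-3p: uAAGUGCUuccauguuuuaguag
Shorter relatives of the same family from other chromosomes are shown because they differ from miR-302d-3p by a single base each over their length.
miR-302e: uAAGUGCUuccaugcuu
miR-302f: uAAUUGCUuccauguuu
The third group shows miR-1283 beside the 2 members nearest to it in sequence.
miR-1283: uCUACAAAggaaagcgcuuucu
miR-515-5p: uUCUCCAAaagaaagcacuuucug
miR-520d-5p: cUACAAAGggaagcccuuuc
The last group shows the shared core in the neighbour cluster, in the chromosome 19 cluster and in 2 relatives from elsewhere in the genome.
miR-372-3p: aAAGUGCUgcgacauuugagcgu
miR-373-3p: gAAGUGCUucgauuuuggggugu
miR-520c-3p: aAAGUGCUuccuuuuagagggu
miR-519d-3p: cAAAGUGCcucccuuuagagug
miR-17-5p: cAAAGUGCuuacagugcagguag
miR-93-5p: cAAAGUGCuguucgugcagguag

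The libraries held 312152 to 488407 counts in all. Background was read from 8 negative-control probes, which have no target in the sample and gave 9 to 83 raw counts. Their mean was 24.5 to 31.2 counts in a library. The background limit, set at their mean plus 2 SD, lay between 53.1 and 75.8 counts. It rests partly on the negative control NEG_C, which was the highest in every library at 57 to 83 counts. A miRNA was tested when it exceeded the limit in at least 3 of the 6 libraries, which 152 of 798 probes did. All 3 miRNAs listed as abundant in A549 were tested. So was 1 of 6 epithelial markers, miR-200b-3p, which exceeded the limit in the 3 siSCR libraries and in no siAPE1 library. Of the other lists, 2 of 4 neuronal markers were tested, but none of the 6 blood markers, the 7 muscle markers or the liver marker.

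Almost the whole of both gene groups was at background in A549 cells. Of the 53 probes, 51 never exceeded the limit in any library (96.2%), whereas 75.7% of the other 745 probes never did. The 2 exceptions, miR-302d-3p and miR-1283, exceeded it in all 6 libraries, so that 3.77% of the members were tested against 20.1% of the other probes. Both were above the limit in every siSCR and every siAPE1 library, and the filter therefore did not depend on the group.

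**Figure D1:**
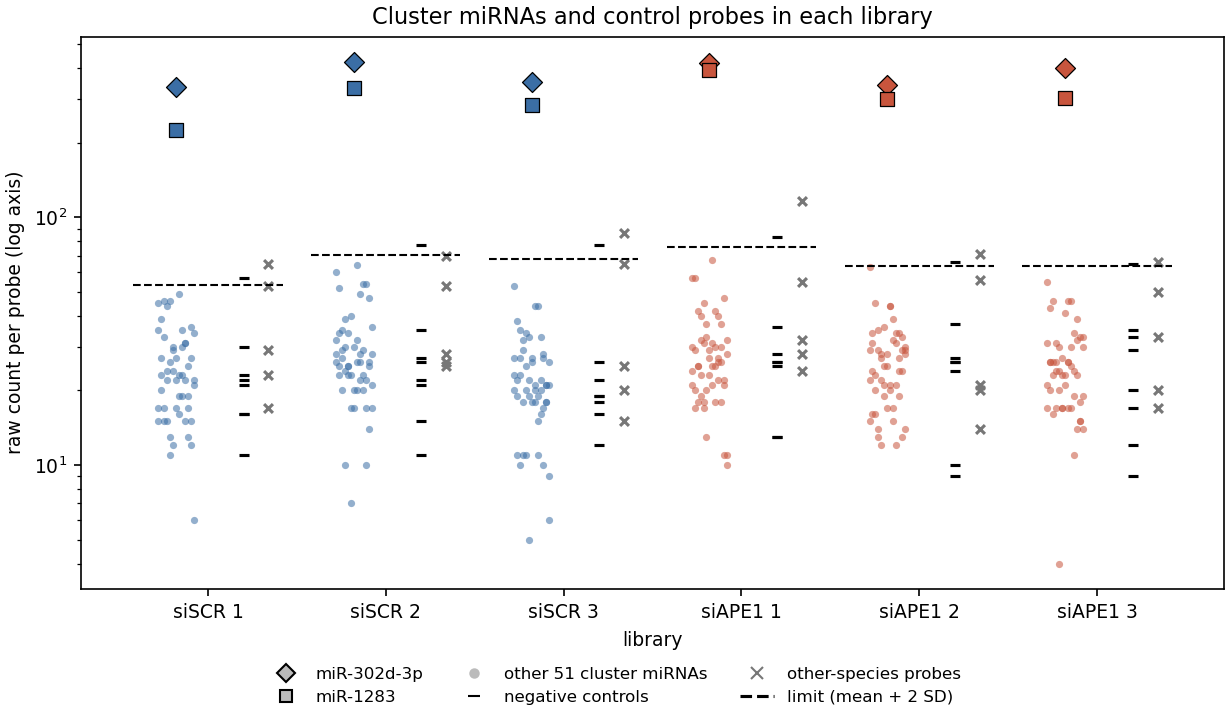
Raw count of each of the 53 cluster probes (log axis) in the 3 siSCR (blue) and 3 siAPE1 (red) libraries, with the 8 negative controls (bars), 5 probes for miRNAs of other species (crosses) and the limit of mean plus 2 SD (dashed). In each library miR-302d-3p (diamonds) and miR-1283 (squares) stand at 226 to 424 counts, and the other 51 probes lie below the limit, among the negative controls or under them.

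miR-302d-3p was detected at 336, 424 and 351 raw counts in siSCR replicates 1 to 3 and at 418, 341 and 400 in siAPE1 replicates 1 to 3. These counts were 12.1 to 14.5 times the negative-control mean of the same library. miR-302d-3p is 1 of the 4 near-identical 3p miRNAs that the miR-302 cluster encodes. Its mature sequence lies at chr4:112648006-112648028 on the minus strand, in the hairpin MIR302D.

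The other miRNAs of that cluster were not detected with it. The miR-302a, miR-302b, miR-302c, miR-302d and miR-367 genes are known to be transcribed together as 1 precursor, and their mature sequences on the panel all lay within 0.635 kb of chromosome 4. miR-302b-3p came nearest to the limit, with 49, 64 and 44 counts in siSCR and 67, 44 and 46 in siAPE1, or 1.88 times the negative-control mean on average. miR-302a-3p had 29 to 44 counts in the 6 libraries, and miR-302c-3p had 19 to 54. miR-367-3p, which has a different seed from the miR-302 miRNAs, had 19 to 26. miR-302a-5p, the other arm of the miR-302a hairpin, had 20 to 26. With the limit set without the highest negative control, miR-302b-3p exceeded it in 6 libraries, miR-302a-3p in 3 and miR-302c-3p in 2. No 5p arm of MIR302D and no second arm of miR-1283 was among the probes. The miR-302 relatives from other chromosomes were also at background, miR-302e (chromosome 11) at 27 to 35 counts and miR-302f (chromosome 18) at 17 to 25.

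The miR-302 probes below the limit target sequences close to that of miR-302d-3p. With positions counted from 1 at the 5′ end of miR-302d-3p and its own base given first, miR-302c-3p differs by G18C and U23G. miR-302a-3p differs by G18U, A19G and U23A, and miR-302b-3p by G18U, G22A and U23G. All of these differences lie in the 3′ part of the molecule, as the sequences above show. Over its 17 bases miR-302e differs by U15C, and miR-302f, also of 17 bases, by G4U within the seed. Among tested miRNAs outside the clusters the closest to miR-302d-3p were miR-196a-5p and miR-574-5p, each with 14 of 23 bases matching. Cross-hybridisation between these probes was not tested.

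miR-1283 was the only detected miRNA of the 41 probes of the chromosome 19 cluster. Its raw counts were 226, 331 and 283 in siSCR replicates 1 to 3 and 393, 300 and 303 in siAPE1 replicates 1 to 3, or 9.22 to 12.6 times the negative-control mean. The mature sequence is encoded at 2 places on the plus strand, at chr19:53688494-53688515 in MIR1283-1 and at chr19:53758245-53758266 in MIR1283-2. A probe for the mature miRNA cannot tell these apart.

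The members closest to miR-1283 in sequence were at background. miR-515-5p, aligned with 1 base of offset, matches it at 19 bases and differs by A4C, G9A and G16A (numbered on miR-1283), and it had 21 to 30 counts. The probe shared by miR-520d-5p, miR-527 and miR-518a-5p had 19 to 26 counts, and miR-520d-5p differs from miR-1283 by A11G and G16C over 20 bases. The tested miRNA outside the clusters with the most matching bases was miR-381-3p, with 16. The matched mature sequences of the cluster spanned 95.7 kb of chromosome 19, and miR-1283 was detected without a single other probe along that stretch.

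**Figure D2:**
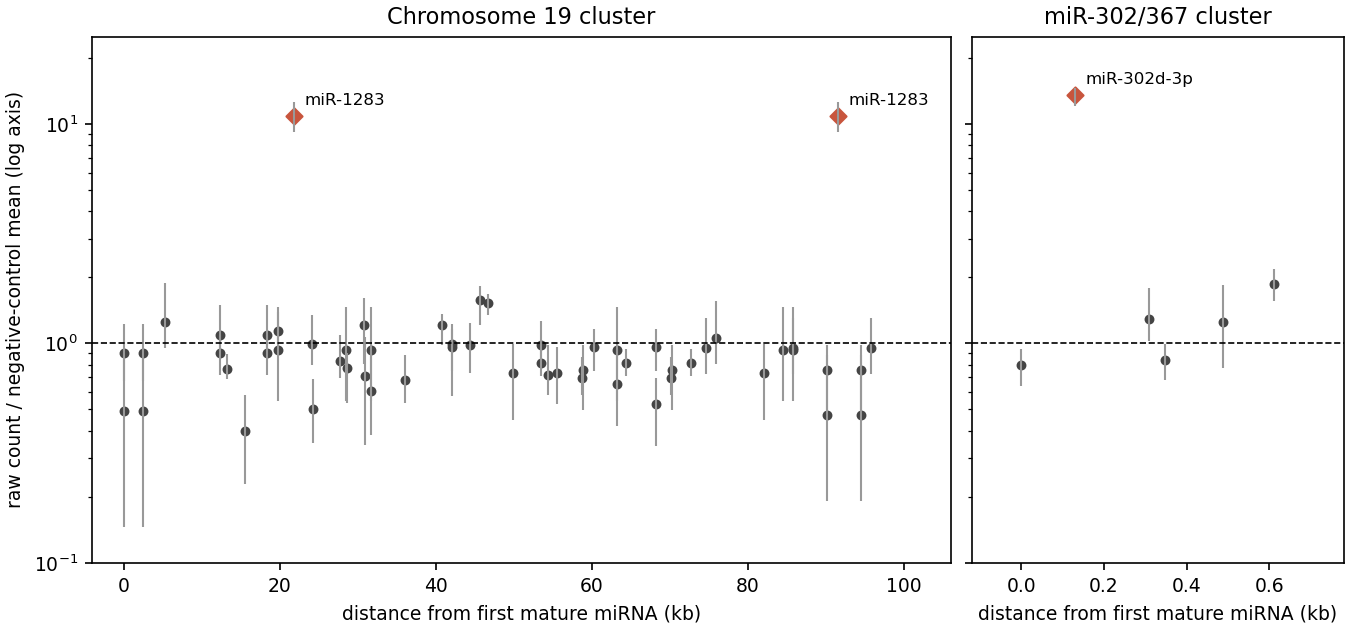
Raw count divided by the library's negative-control mean (log axis; points are means over 6 libraries, bars run from the lowest to the highest library) against distance in kb from the first mature miRNA of the chromosome 19 cluster (left) and of the miR-302 cluster on chromosome 4 (right). miRNAs encoded at several places are drawn at each. miR-1283 (drawn at both of its hairpins) and miR-302d-3p (red diamonds) stand above neighbours whose means run from 0.40 to 1.88, and the dashed line marks the negative-control mean.

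The defining placental markers all lay below the limit. miR-517a-3p, one of the placental miRNAs of the cluster found in maternal blood, had 39, 52 and 38 counts in siSCR and 57, 34 and 43 in siAPE1. miR-519d-3p, which carries the seed of the miR-17 family, had 35 to 49. miR-515-3p had 27 to 41 counts, miR-517b-3p had 17 to 24 and miR-512-3p had 4 to 25. The probe shared by miR-517c-3p and miR-519a-3p had 20 to 34. None of the 6 exceeded the limit in any library. With the limit set without the highest negative control, miR-517a-3p and miR-519d-3p exceeded it in 5 of the 6 libraries. The other markers then exceeded it in at most 1 library.

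The undetected members formed a graded series around the negative controls. The highest were miR-498 (45, 60 and 53 counts in siSCR, 57, 63 and 55 in siAPE1) and miR-302b-3p, just below the limit. Next in the chromosome 19 cluster came miR-517a-3p, miR-519d-3p, miR-518f-3p (35 to 46 counts) and miR-1323 (25 to 46). The lowest were miR-520f-3p with 6 to 17 counts, miR-516a-5p with 5 to 25, and miR-520a-3p with 11 to 18 and miR-512-3p with 4 to 25, which had the same mean of 13.8. Of the 51 probes, 35 had a mean below that of the negative controls, as did 340 of the 595 other probes that were not tested. The median member stood at 0.90 of the negative-control mean, against 1.05 for the other 745 probes. Among untested probes alone the medians were 0.84 for the members and 0.95 for the others. All of these comparisons include NEG_C in that mean. Without the highest control the median ratio of the members, taken per library, rose from 0.87 to 1.12.

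The undetected probes kept much the same order in both groups. Across the 51 probes the mean counts in siSCR and in siAPE1 correlated with Pearson's r = 0.924 and Spearman's rho = 0.888, a description across probes that were read in the same libraries and are not independent replicates. The variance of a probe over the 6 libraries divided by its mean had a median of 0.998, where counting alone gives a value of about 1. The same quotient was 4.26 for miR-302d-3p and 9.91 for miR-1283. These counts were unscaled, and differences between libraries raise the quotient more at higher counts. It therefore does not compare the variability of detected and undetected probes. At this depth a miRNA present at less than the background of its own probe could not be told from an absent one.

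The neighbour cluster held no detected member. miR-371a-5p was its highest probe, with 31, 54 and 33 counts in siSCR and 40, 34 and 34 in siAPE1. miR-372-3p and miR-373-3p, which share the seed AAGUGCU with miR-302d-3p and are known in testicular germ cell tumours, had 15 to 25 and 16 to 21 counts. miR-371b-5p had 11 to 25. The matched mature sequences of this cluster lay within 1.09 kb at chr19:53787680-53788770.

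The shared core did not go with detection. Among the matched names, 19 carried AAGUGC within their first 10 bases, each on a probe of its own or shared, and only miR-302d-3p of these was tested. The other 18 probes had mean raw counts of 11.2 to 52.3. The seed AAGUGCU alone was held by 10 members, from miR-520a-3p at a mean of 13.8 counts to miR-302d-3p at 378. The matched names had 31 different seeds in all, and no other member had the miR-1283 seed CUACAAA.

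miRNAs outside the clusters with the same core were read well above background in the same libraries. miR-93-5p, of the miR-106b/25 cluster, had 4975, 6810 and 5397 raw counts in siSCR and 3883, 3952 and 3819 in siAPE1. The probe shared by miR-106a-5p and miR-17-5p had 682, 825 and 619 in siSCR and 441, 561 and 421 in siAPE1. The probe shared by miR-20a-5p and miR-20b-5p ran from 385 to 756 counts and miR-106b-5p from 361 to 650. Raw counts of all 4 probes were lower in siAPE1 without overlap, as were those of 19.7% of all probes. Of the 745 probes outside the clusters 156 separated in this way, and only 37 of these were among the 595 that were not tested. Such a drop was therefore common among the tested miRNAs. The siAPE1 libraries held fewer miRNA counts in all (194991 to 210884 against 257102 to 330278). The 4 probes exceeded the limit in every library, as miR-302d-3p did.

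**Figure D3:**
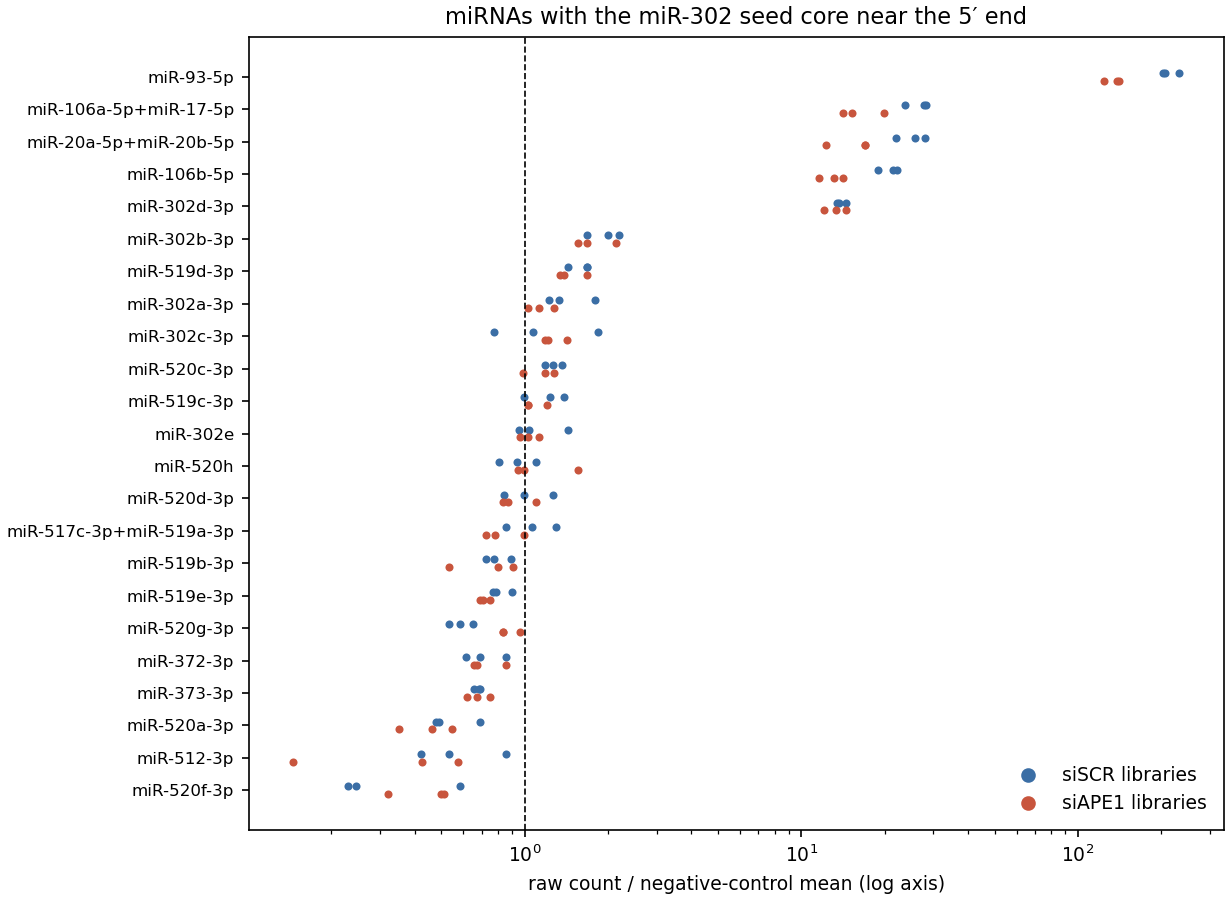
Raw count divided by the negative-control mean (log axis) in each siSCR (blue) and siAPE1 (red) library for the 19 cluster probes with the miR-302 seed core within their first bases and for the 4 probes of relatives outside the clusters. The relatives and miR-302d-3p lie at or above 11.6, and the other 18 cluster probes lie around or below the dashed line at 1, the highest of them miR-302b-3p.

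The comparison of siAPE1 with siSCR asks which miRNAs depend on APE1, which has been linked to miRNA processing. Counts were divided by a scaling factor from positive controls and housekeeping mRNAs. On this scale miR-1283 had 200, 247 and 320 scaled counts in siSCR and 410, 314 and 371 in siAPE1. The means were 256 ± 60.5 and 365 ± 48.3 (SD, n = 3). siSCR replicate 3 lay above siAPE1 replicate 2, so the groups overlapped. The log2 fold change was 0.52 ± 0.17 (SE) with an adjusted p of 0.00511 (edgeR quasi-likelihood test, Benjamini-Hochberg over the 152 tested miRNAs, threshold 0.1).

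miR-302d-3p had 298, 316 and 397 scaled counts in siSCR and 436, 357 and 489 in siAPE1. The means were 337 ± 52.9 and 428 ± 66.5 (SD, n = 3), and the groups overlapped here too. The log2 fold change was 0.35 ± 0.17 (SE) with an adjusted p of 0.0668 in the same edgeR fit. Both tested members were thus called higher in siAPE1. In these bulk samples a change in the number of cells with a miRNA and a change in its amount per cell cannot be told apart. Over all tested miRNAs 60.5% were called in either direction and 9.87% were called higher.

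Both calls depended on the scaling factor. On raw counts miR-302d-3p and miR-1283 overlapped between the groups, and relative to the negative controls they did so as well. The ratio of miR-302d-3p to the negative-control mean was 13.9 ± 0.55 in siSCR and 13.4 ± 1.21 in siAPE1 (SD, n = 3). That of miR-1283 was 10.5 ± 1.10 and 11.4 ± 1.02. With the negative-control mean as the scaling factor, the edgeR log2 fold change of miR-302d-3p was −0.06 (95% interval −0.35 to 0.24, adjusted p = 0.716). That of miR-1283 was 0.13 (−0.16 to 0.41, adjusted p = 0.416). With positive controls alone the values were −0.07 (adjusted p = 0.697) and 0.13 (adjusted p = 0.466). Neither member was called under these 2 scalings, while 88.2% of the tested miRNAs were called under each. With TMM, which centres the tested miRNAs, the values were 0.71 and 0.90, and both members were called, as were 30.9% of the tested miRNAs in the same direction.

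**Figure D4:**
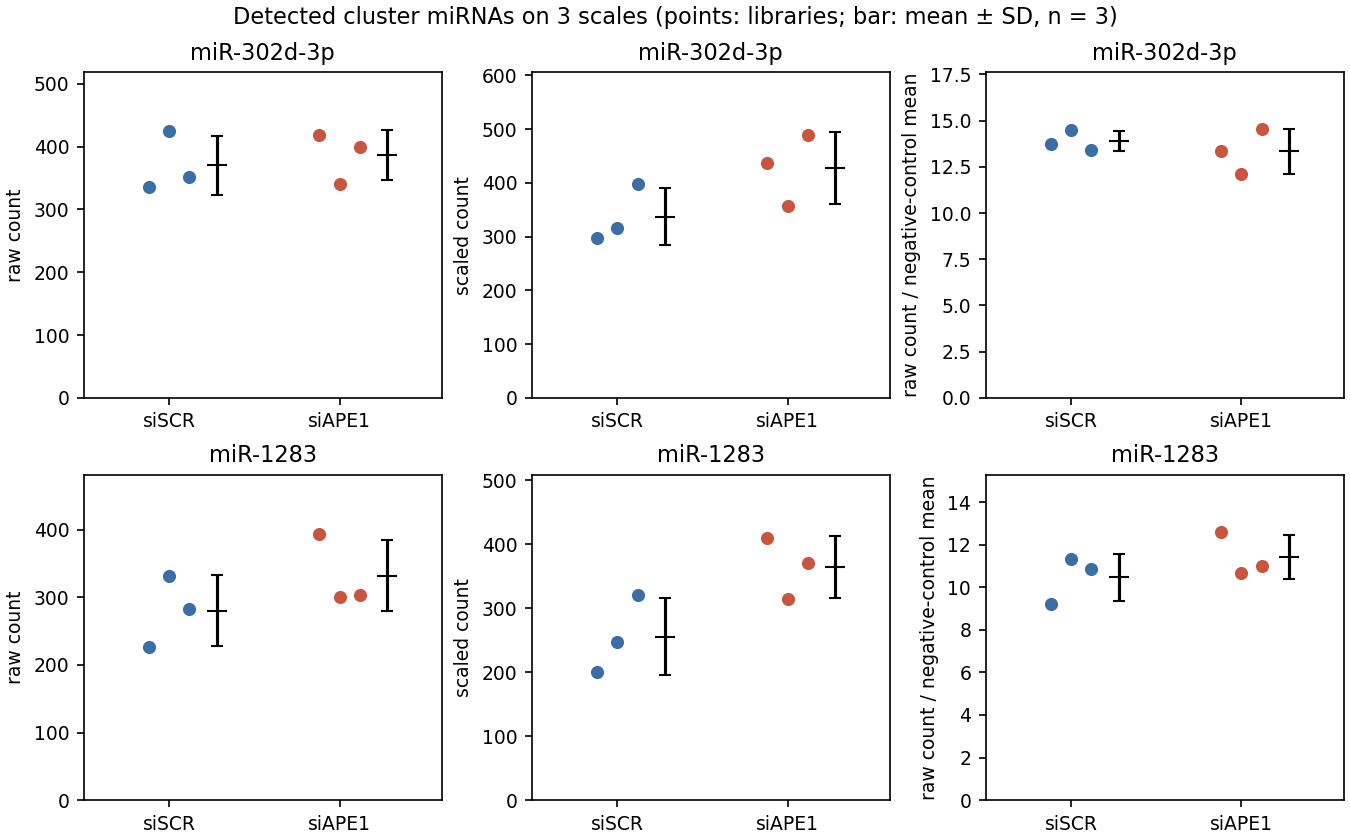
miR-302d-3p (top) and miR-1283 (bottom) in each library of siSCR (blue) and siAPE1 (red) as raw count, scaled count and raw count divided by the negative-control mean, with mean ± SD (n = 3, black). All axes start at 0. The group means are farthest apart as scaled counts (337 and 428, 256 and 365), and the libraries of the groups overlap in all 6 panels.

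A scaling factor is common to all probes of a library, so the undetected members moved with it by construction. Fitted without a filter, the 51 probes had a median log2 fold change of 0.32, and all 53 members 0.34, against 0.21 for the other probes and −0.34 for the 152 tested miRNAs. The 595 other probes that were not tested had a median of 0.27. The log2 fold change of miR-302d-3p (0.35) exceeded the median of the 51 probes by less than its SE, and that of miR-1283 (0.52) by more than its SE. With the negative-control mean as the scaling factor the medians were −0.10 for the 51 probes, −0.15 for the 595 other untested probes, −0.21 for the other probes and −0.74 for the tested miRNAs. The scaled mean of the negative controls themselves was 24.4 ± 4.50 in siSCR and 31.9 ± 2.18 in siAPE1 (SD, n = 3, exact two-sided permutation p = 0.2, where the smallest possible is 0.1). Their raw mean was 26.6 ± 2.41 and 29.0 ± 2.01 (exact permutation p = 0.3).

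**Figure D5:**
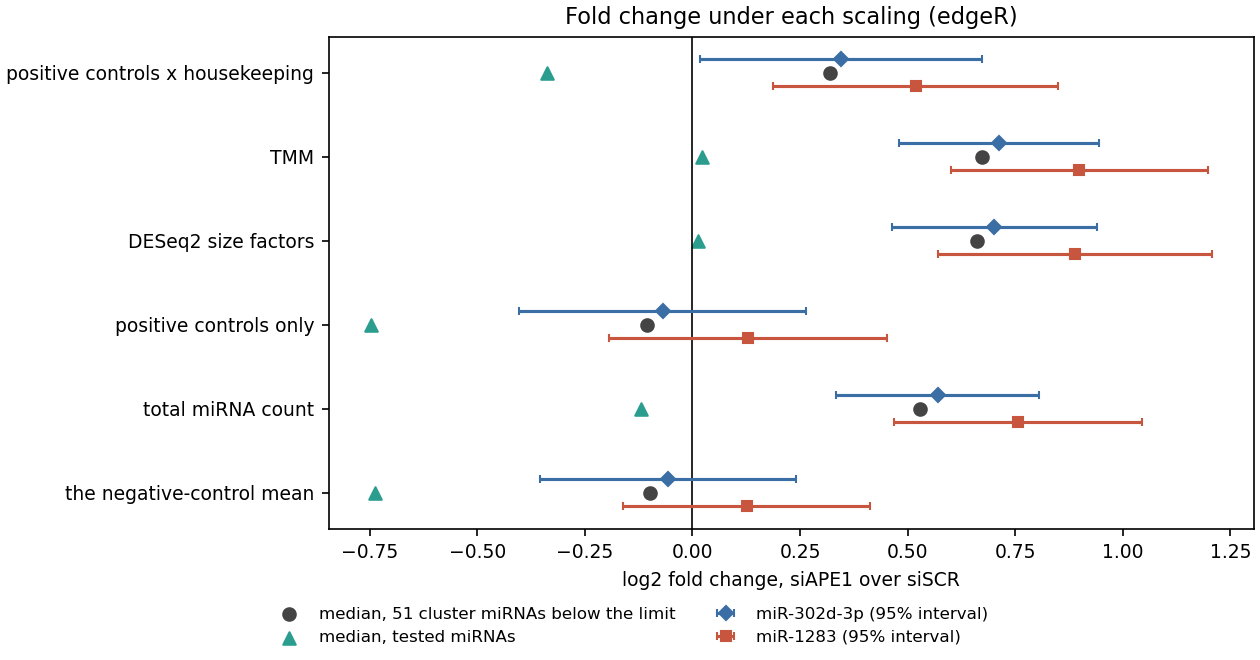
Log2 fold change of siAPE1 over siSCR (edgeR) under 6 scaling factors for miR-302d-3p and miR-1283 (95% intervals), with the median of the 51 undetected cluster probes (circles) and of the 152 tested miRNAs (triangles). The circles run from −0.10 to 0.67, with miR-302d-3p close to them and the triangles to the left. A change of scaling moves all symbols together, so the 6 rows are not separate evidence of this.

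Without a filter, single undetected members passed the test with the main scaling. In that fit 7 members (13.2%) were called higher and none lower, where 78 of all 798 probes (9.77%) were called higher and 74 lower. Among the 595 other probes that were not tested, 59 were called higher and 6 lower. The largest log2 fold changes were those of miR-516a-5p (1.48, with 12, 7 and 5 raw counts in siSCR and 13, 25 and 17 in siAPE1), miR-520b (1.07, with 15, 10 and 11 against 32, 13 and 17) and miR-520g-3p (0.98, with 13, 17 and 17 against 26, 27 and 23). All of these counts were at or below 32 and below the limit. The lowest values were those of miR-512-3p (−0.23), miR-520a-5p (0.02) and the probe that miR-519b-5p shares with 5 other names (0.04). With the negative-control mean as the scaling factor and no filter, 1 member was called higher, miR-516a-5p, against 1.38% of all probes. With scalings taken from the miRNA counts themselves more members and more probes in all were called higher. It was 44 of 53 members with TMM (64% of all probes), 44 with DESeq2 size factors (62.4%) and 31 with the total miRNA count (39.2%).

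How many members separated between the groups depended on the scale. Scaled counts did not overlap between the groups, with siAPE1 higher, for 12 members (22.6%), and 17.3% of all probes did so. For none of the members did they separate with siAPE1 lower, against 11% of all probes. As ratios to the negative-control mean, 1 member separated with siAPE1 higher (miR-520g-3p) and 2 with siAPE1 lower (miR-520a-5p and miR-519e-3p, the latter chosen after its values were seen), against 2.88% and 27.1% of all probes. On that scale 16 of the 595 other untested probes separated higher and 87 lower.

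The relatives outside the clusters were not called with the main scaling. Their log2 fold changes were −0.28 for miR-93-5p (adjusted p = 0.163), −0.29 for miR-106b-5p (0.126), −0.30 for the probe of miR-106a-5p and miR-17-5p (0.118) and −0.31 for that of miR-20a-5p and miR-20b-5p (0.108), by edgeR. These lie close to the median of the tested miRNAs. With the negative-control mean as the scaling factor all 4 fell, by 0.67 to 0.71 on the log2 scale, and with TMM all 4 were slightly above 0. Relative to the negative controls miR-93-5p was 214 ± 16.3 in siSCR and 135 ± 8.95 in siAPE1 (SD, n = 3). The difference between these changes and that of miR-302d-3p, which carries the same core, was not tested.

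Leaving out 1 library ended either call. Without siSCR replicate 1 neither member passed (miR-302d-3p adjusted p = 0.266, miR-1283 adjusted p = 0.113, edgeR). The call of miR-302d-3p was also lost without siSCR replicate 2 (0.272), siAPE1 replicate 1 (0.106) or siAPE1 replicate 3 (0.178). With the negative-control mean subtracted before a limma fit, miR-1283 alone was called (8.55% of the tested miRNAs were called higher). Neither member was called in the deposited score table, which holds no scaling between libraries (5.26% called higher). With the limit set without the highest negative control, 8 members were tested and 4 were called higher by edgeR, against 13.8% of the 289 miRNAs then tested. The added calls were miR-498 (log2 fold change 0.43, adjusted p = 0.0705) and miR-518f-3p (0.48, adjusted p = 0.0812). Tested then but not called were miR-302b-3p, miR-517a-3p, miR-519d-3p and miR-302a-3p (adjusted p = 0.257, 0.213, 0.329 and 0.819, edgeR).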

How the data were processed

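Per the labels and the values, the deposited files held raw counts per probe of each library from the nCounter human v3 miRNA panel. The authors also deposited a table of background-corrected values, a score rather than counts, used only as an alternative. Scores there followed a single line in the raw counts for each probe over all libraries (126 probes checked, largest residual 0.640). They therefore held no scaling between libraries. The authors normalised with NanoStringDiff, which was not used here.

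The scaling factor of a library was its positive-control slope factor times its housekeeping factor (median ratio of 5 mRNAs, with the mean of the negative controls taken off first). edgeR 4.0.16 in R 4.3.3 fitted raw counts by robust quasi-likelihood with these factors as offsets, without a replicate block, and p-values were two-sided and Benjamini-Hochberg adjusted over the 152 tested miRNAs (threshold 0.1). Without a filter all 798 probes were fitted. limma 3.58.1 and DESeq2 1.42.0 served for alternatives, which also included other scalings, limits and left-out libraries. The fits were tested on simulated data. Depth sets the counting error only. Named were the tested members, all miR-302, miR-367 and miR-371 to miR-373 probes, defining placental markers, the highest and lowest chromosome 19 probes by level and by fold change, and relatives with the AAGUGC core. Other names (miR-515-5p, miR-518a-5p, miR-520c-3p, miR-520d-5p, miR-527, miR-520e, miR-522-3p, miR-519e-3p, miR-196a-5p, miR-574-5p, miR-381-3p, miR-200b-3p) were chosen after their values were seen. The members and lists were chosen with earlier results of these data known.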

Additional observations from a re-analysis of the deposited data

Results flagged for a closer look

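A probe for the rice miRNA osa-miR414, which was in none of the comparisons, had a mean of 74.2 raw counts and exceeded the background limit in 4 of the 6 libraries (53 to 116 counts). It was singled out because its mean was above that of every negative control (NEG_C at 70.8) in cells that should not hold its target. In siSCR replicates 1 and 2 it read below NEG_C (53 against 57 and 77). Its mean was higher than that of each of the 51 undetected cluster probes, of which miR-498 was the highest at 55.5. The same held for a second rice probe, osa-miR442, with a mean of 60.2, which exceeded the limit in 1 library.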

How the results depend on the processing

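The count of detected members was 2 in 11 of 13 alternatives, including every left-out library. It was 8 (15.1%) with the limit set without the highest negative control, where 281 of the 745 other probes (37.7%) were detected. In the deposited score table with a score above 0 it was 18 (34%), against 358 of the 745 other probes (48.1%). The 2 calls higher in siAPE1 became 0 with positive controls only, 0 with the negative-control mean and 0 in the score table. They became 1 after background subtraction (limma, miR-1283), 4 with the limit without the highest negative control, 7 with no filter and 0 to 2 without 1 library. The log2 fold change of miR-302d-3p was −0.069 with positive controls only and −0.057 with the negative-control mean. The median over all members was 0.70 (TMM), 0.69 (DESeq2 size factors), 0.55 (total miRNA count), −0.074 (positive controls only) and −0.068 (negative-control mean). Their median ratio to the negative-control mean, 0.87 as a mean over libraries, was 1.12 without the highest control, 1.03 against the median control and 0.60 against the probes for other species. The negative-control difference (7.55 scaled counts) was −0.13 with positive controls only and 14.9 with TMM (exact permutation p = 0.1, the smallest possible). Calls over all miRNAs rose from 92 to 152 with no filter. With TMM, 47 were higher and 46 lower, against 15 and 77. The relatives had 0 calls, but 4 with positive controls only, 4 with the negative-control mean, 4 with the replicate block, 4 in the score table and 0 to 4 without 1 library. Their values under TMM, DESeq2 size factors and the DESeq2 test were 0.068, 0.058 and 0.058 for miR-106a-5p with miR-17-5p, 0.074, 0.065 and 0.065 for miR-106b-5p, 0.043, 0.033 and 0.034 for miR-20a-5p with miR-20b-5p, and 0.091, 0.081 and 0.081 for miR-93-5p. The causes were not tested.

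Deviations of same-numbered replicates from their group means were not positively correlated across the tested miRNAs (correlations −0.589, −0.013 and −0.493). With 3 libraries in a group this cannot show whether the numbers pair the libraries. With the replicate block both member calls remained (miR-302d-3p 0.34, adjusted p = 0.0173, edgeR). The SE of miR-302d-3p was 0.119 with the block and 0.167 without it, and 116 miRNAs were called against 92. The alternatives for the relatives and for the negative controls were chosen after seeing the data.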
